A study of Homo sapiens with 6 samples.

Results

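Receptors that open or signal on binding a fast neurotransmitter were examined in SH-SY5Y cells after 1 h of unconjugated bilirubin. The genes were taken by their symbols: glutamate receptor genes (GRIN, GRIA, GRIK and GRM), GABA-A receptor genes (GABR), glycine receptor genes (GLRA and GLRB), nicotinic acetylcholine receptor genes (CHRN), serotonin HTR3 genes and P2X genes for ATP receptors. They numbered 61 of the 11963 genes named on the arrays, carried by 91 of the 22215 probe sets tested, and the probe set with the highest mean over the 6 arrays stood for each gene. Of the 61, 54 encode subunits of ligand-gated ion channels. The 7 GRM genes encode metabotropic glutamate receptors, which act through G proteins, so the term ligand-gated covers the list only in part. A further 5 probe sets with a matching symbol were left out, because each carried several symbols.

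SH-SY5Y is a single human neuroblastoma line of neuronal character, and both groups are of this line. The study asked which genes respond to bilirubin, and these arrays addressed its earliest time point. In 3 arrays the cells had been exposed for 1 h to free bilirubin at 140 nM (Bf 140 nM), the part of the pigment that is not bound to albumin, brought in with DMSO as its solvent. In 3 further arrays the cells had received DMSO 0.6% alone for 1 h. Each treatment had its own flasks, and the replicates were given as biological. The replicate numbers 1 to 3 occur in both groups.

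Ionotropic receptors join ligand binding and an ion pore in 1 assembly of several subunits, and the mix of subunits sets the affinity, the kinetics and the permeant ions. Nicotinic, GABA-A, glycine and HTR3 subunits belong to the Cys-loop family and form pentamers. Glutamate channels of the NMDA, AMPA and kainate classes are tetramers, and P2X channels are trimers gated by extracellular ATP. Autonomic neurons, the lineage that neuroblastoma stems from, use nicotinic channels for fast transmission in ganglia.

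Array values were deposited after variance stabilization and are read here as log2, and the array medians lay between 7.73 and 7.97. The replicate 3 arrays stood apart in both groups. Their medians were the lowest, their values correlated at 0.961 to 0.977 with the other 4 arrays, and their actin control was brighter at the 3′ end by 1.49 and 1.90 log2, where the other arrays had 0.10 to 0.50. Of 17 measured markers of noradrenergic neuroblastoma, 15 lay above the array median on all 6 arrays, with HAND2 above it on 4 arrays and TH, the defining enzyme of catecholamine synthesis, above it on 0. Of 14 markers of mesenchymal cells 8 did. The median differences between Bf 140 nM and DMSO 0.6% were -0.01 log2 for the former and -0.02 log2 for the latter markers, and the part of either in the results was not tested. In a culture, fewer cells with a transcript and less transcript per cell cannot be told apart. The study reported that viability, assayed in separate flasks, had already fallen at this dose and time relative to the solvent control. It described the cells that it profiled as survivors. The treated and control cultures may thus differ in which cells remained, and the part of cell loss in the differences was not tested.

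Few of the receptor genes were bright on these arrays. Of the 61 genes, 5 (8.20%) lay above the array median on all 6 arrays, where 53.3% of all genes did, and 51 (83.6%) lay above it on no array, where 38.6% of all genes did. The 5 were CHRNA3, CHRNA5 and CHRNB2 of the nicotinic class and GRIK5 and GRIK2 of the kainate class. CHRNB1, P2RX4, GRM7, GLRB and CHRNB4 lay above the median on some arrays. The median receptor gene lay 0.87 log2 below the array median, and the median of all genes 0.46 log2 above it. For comparison, the 18 measured genes of liver, muscle, skin and other tissues that this line does not come from had a median of -1.08 log2, and 2 of them, KRT10 and SFTPB, lay above the median on all 6 arrays. A probe set's brightness depends on its own probes, so these positions do not rank the genes by amount of RNA, and the detection calls of the arrays were not used here.

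**Figure D1:**
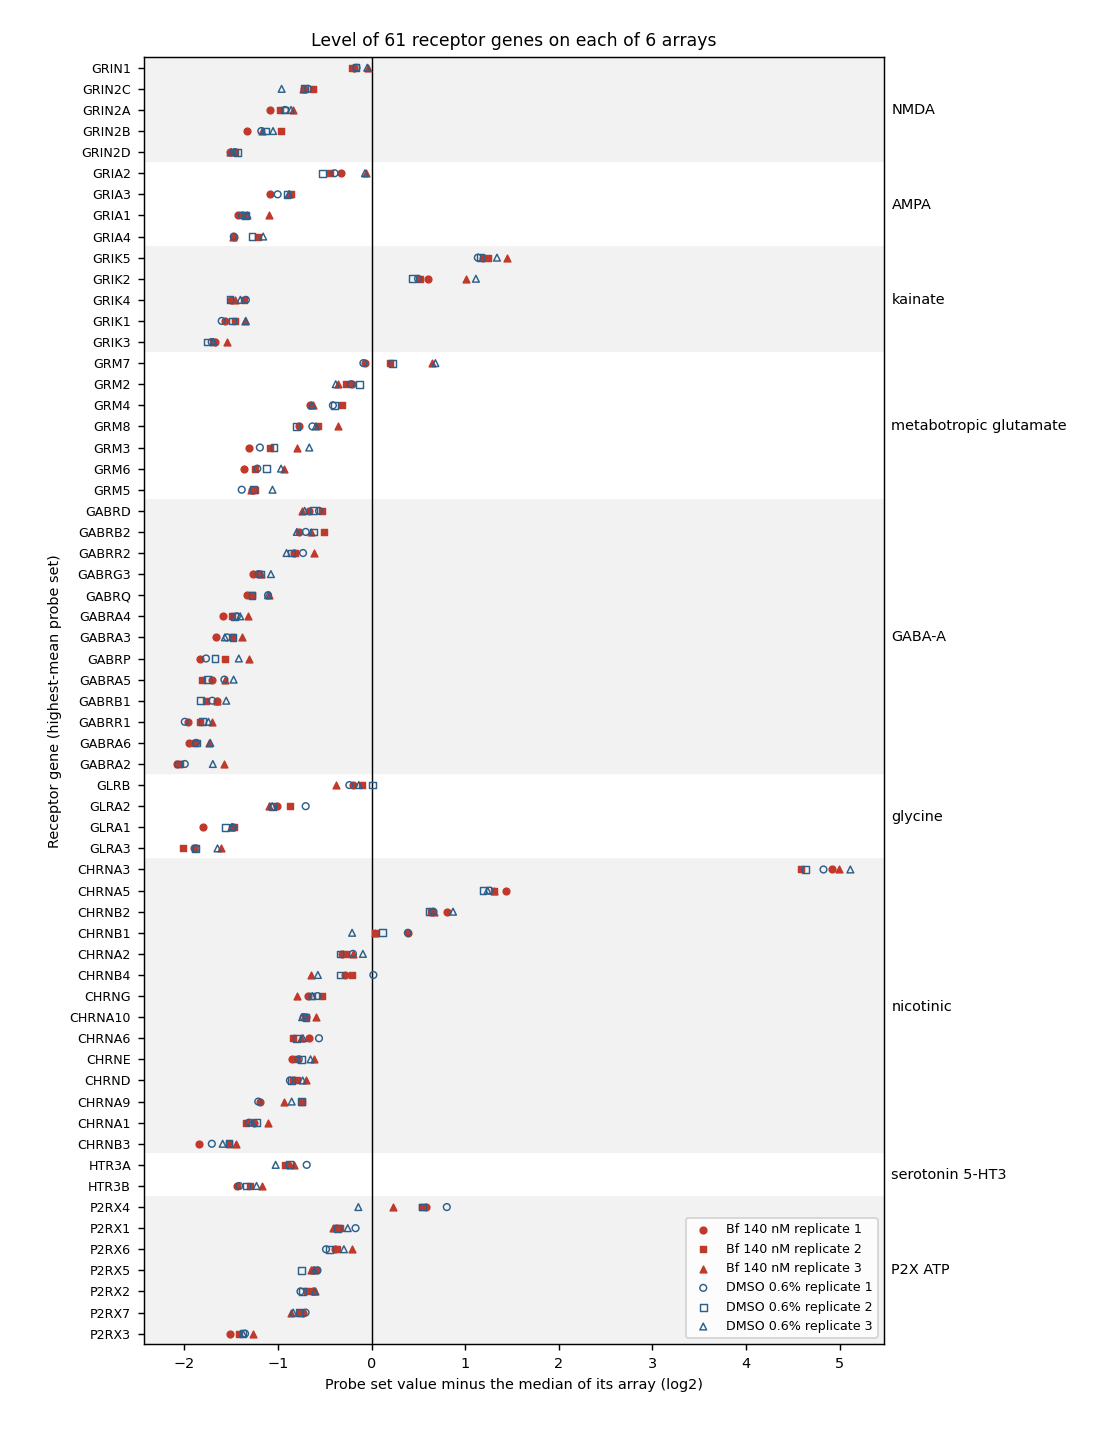
Value of the highest-mean probe set minus the median of its array, in log2 on the horizontal axis, for 61 receptor genes on the vertical axis, ordered by class. Each symbol is 1 of the 6 arrays, and the vertical line marks the array median. CHRNA3 sits between 4.59 and 5.12 log2 above the median, and all 13 GABA-A receptor genes sit below it on every array.

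Nicotinic acetylcholine receptor genes held the brightest member. Of 14 genes, 3 lay above the array median on all 6 arrays, 2 on some and 9 on none. CHRNA3 encodes the ligand-binding subunit of the main receptor of autonomic ganglia. It read 12.89, 12.53 and 12.77 log2 in replicates 1, 2 and 3 of Bf 140 nM and 12.78, 12.59 and 12.84 log2 in those of DMSO 0.6%, which is above 97.6% of the probe sets on every array. The groups overlapped throughout this narrow range. Both other CHRNA3 probe sets also lay above the median on all 6 arrays, by 3.86 and 3.28 log2 on average, though both carry the x suffix of probes able to match other transcripts.

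CHRNA5 encodes an accessory subunit that joins receptors built from alpha and beta subunits. Its values were 9.41, 9.25 and 9.09 log2 in Bf 140 nM and 9.22, 9.14 and 8.97 log2 in DMSO 0.6%, with the replicate 3 array lowest in each group. CHRNB2 encodes the beta subunit common in brain receptors. It read 8.78, 8.57 and 8.44 log2 in Bf 140 nM and 8.61, 8.57 and 8.60 log2 in DMSO 0.6%, and the DMSO values fell inside the range of the Bf values.

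CHRNB4, the usual beta partner of CHRNA3 in ganglia, was close to the array median. It read 7.69, 7.72 and 7.13 log2 in Bf 140 nM and 7.97, 7.61 and 7.15 log2 in DMSO 0.6%, above the median on 1 array, and both replicate 3 arrays were the lowest. CHRNB1, the beta subunit of the muscle receptor, read 8.36, 7.98 and 7.81 log2 in Bf 140 nM and 8.34, 8.06 and 7.52 log2 in DMSO 0.6%, above the median on 5 arrays. The values of CHRNB4 and CHRNB1, and those of P2RX4 and GRM7 below, are given because their arrays lay on both sides of the median, a choice made after they were seen. The other muscle subunits CHRNA1, CHRND, CHRNE and CHRNG lay below the median on every array, as did CHRNA2, CHRNA6, CHRNA9, CHRNA10 and CHRNB3.

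CHRNA5, CHRNA3 and CHRNB4 lie next to each other on chromosome 15 in the RefSeq gene table. Their mean positions were 1.29, 4.85 and -0.34 log2 from the array median. The start regions of CHRNA3 and CHRNB4, 300 bases that lie mostly upstream of the gene start, are shown as the neighbours whose probe sets fell far apart. They come from RefSeq on GRCh38.p14 and read 5′ to 3′ on the gene's strand. Capitals mark the GC box, GGGCGG or its complement CCGCCC, a motif bound by the SP1 family.
CHRNA3, chr15:78620947-78621246, minus strand: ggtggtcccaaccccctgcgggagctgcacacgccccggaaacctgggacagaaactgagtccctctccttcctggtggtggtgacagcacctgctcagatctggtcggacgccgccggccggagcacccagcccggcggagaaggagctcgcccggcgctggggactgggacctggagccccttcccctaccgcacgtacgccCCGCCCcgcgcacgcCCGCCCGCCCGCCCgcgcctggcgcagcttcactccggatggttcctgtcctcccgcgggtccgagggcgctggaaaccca
CHRNB4, chr15:78641161-78641460, minus strand: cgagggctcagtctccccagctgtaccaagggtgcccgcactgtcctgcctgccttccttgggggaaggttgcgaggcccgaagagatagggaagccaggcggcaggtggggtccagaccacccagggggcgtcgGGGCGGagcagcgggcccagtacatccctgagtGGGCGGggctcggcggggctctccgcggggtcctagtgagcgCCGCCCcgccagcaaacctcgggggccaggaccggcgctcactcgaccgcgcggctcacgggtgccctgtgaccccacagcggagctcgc
The CHRNA3 window held 4 matches, 3 of them overlapping in 1 run, and 31 CpG dinucleotides, and the CHRNB4 window held 3 matches and 27 CpG dinucleotides. A GC box on either strand was present in 15786 of the 35116 RefSeq promoters of this length.

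Kainate receptor genes were the other class with members above the median on all arrays, 2 of 5. GRIK5 encodes a high-affinity subunit that needs a partner such as the product of GRIK2 to form a channel. It read 9.17, 9.18 and 9.22 log2 in Bf 140 nM and 9.09, 9.11 and 9.07 log2 in DMSO 0.6%, so all 3 Bf values were above all 3 DMSO values. This probe set carries the same x suffix, and the other GRIK5 probe set lay below the median on every array, at -0.39 log2 on average. GRIK2, a subunit that forms channels on its own, read 8.57, 8.45 and 8.79 log2 in Bf 140 nM and 8.45, 8.39 and 8.84 log2 in DMSO 0.6%. In both groups the replicate 3 array was the highest. The other GRIK2 probe set lay 3.02 log2 lower, at -2.33 log2 from the array median, so the position of GRIK2 rests on 1 of its 2 probe sets. GRIK1, GRIK3 and GRIK4 lay below the median on every array.

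The start regions of both kainate genes are shown for comparison with the nicotinic pair, with the same marking.
GRIK2, chr6:101393458-101393757, plus strand: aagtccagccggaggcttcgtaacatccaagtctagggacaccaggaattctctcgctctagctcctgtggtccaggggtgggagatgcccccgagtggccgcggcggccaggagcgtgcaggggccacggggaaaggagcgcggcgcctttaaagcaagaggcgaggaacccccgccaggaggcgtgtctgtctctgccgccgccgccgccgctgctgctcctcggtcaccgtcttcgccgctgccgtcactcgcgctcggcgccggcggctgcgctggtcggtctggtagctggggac
GRIK5, chr19:42070157-42070456, minus strand: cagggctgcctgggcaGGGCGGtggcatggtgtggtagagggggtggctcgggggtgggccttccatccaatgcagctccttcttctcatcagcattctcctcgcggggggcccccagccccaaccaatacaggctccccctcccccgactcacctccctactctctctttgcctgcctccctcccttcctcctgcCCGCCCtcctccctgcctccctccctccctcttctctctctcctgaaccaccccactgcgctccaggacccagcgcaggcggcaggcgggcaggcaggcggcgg
The GRIK2 window held 33 CpG dinucleotides and no GC box, and the GRIK5 window held 12 CpG dinucleotides and 2 GC boxes. Of the 61 genes, 44 had an entry among the RefSeq promoters, and 24 of these (54.5%) held a GC box. Among the 4 matched genes above the median on all arrays 2 held one, among the 5 above it on some arrays 5 did, and among the 35 above it on none 17 did. The median CpG count was 23, 27 and 11 in these sets and 14 over all promoters. The receptor counts used the first listed promoter of each gene, and those over all promoters used every entry. These counts are a description of the windows.

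P2X receptor genes included 1 with arrays above the median, of 7. P2RX4, a channel also found on lysosomes, read 8.56, 8.47 and 8.01 log2 in Bf 140 nM and 8.76, 8.49 and 7.59 log2 in DMSO 0.6%, with the replicate 3 array lowest in both groups. Only the DMSO array of replicate 3 lay below its median. Its neighbour on chromosome 12, P2RX7, lay below the median on every array. Among the metabotropic glutamate receptor genes GRM7, a presynaptic receptor that lowers transmitter release, read 7.90, 8.14 and 8.43 log2 in Bf 140 nM and 7.86, 8.17 and 8.41 log2 in DMSO 0.6%. It lay above the median on 4 arrays, and replicate 3 was highest in both groups. The other GRM7 probe set averaged -0.11 log2 from the array median and read 7.85, 7.95 and 7.48 log2 in Bf 140 nM and 7.95, 8.17 and 7.26 log2 in DMSO 0.6%, with replicate 3 lowest in both groups. The other 6 metabotropic genes lay below the median on every array.

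**Figure D2:**
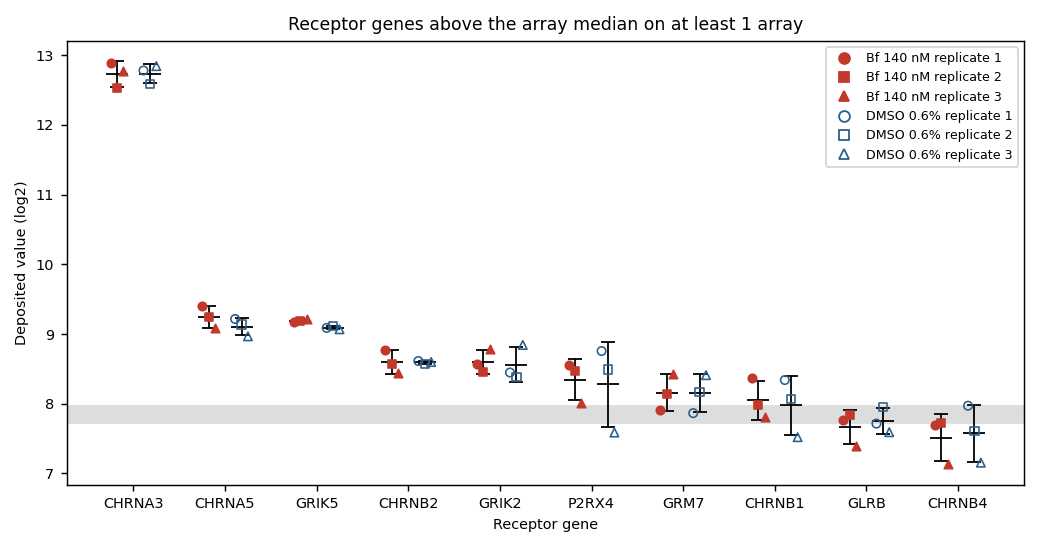
Deposited log2 values on the vertical axis for the 10 receptor genes that lay above the array median on at least 1 array, on the horizontal axis. Symbols are single arrays, horizontal bars are group means with SD (n = 3), and the grey band spans the array medians from 7.73 to 7.97. CHRNA3 is near 12.7 in both groups, and P2RX4, CHRNB1 and CHRNB4 have their lowest value of each group in replicate 3.

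The channels of fast inhibition were dim. All 13 GABA-A receptor genes lay below the array median on every array, at mean positions from -1.91 log2 for GABRA2 to -0.64 log2 for GABRD, the delta subunit of receptors outside synapses. Of the 4 glycine receptor genes, GLRB, the beta subunit that ties the receptor to gephyrin, was nearest to the median at -0.18 log2 and lay above it on 1 array. GLRA1, GLRA2 and GLRA3, the ligand-binding subunits, lay below the median on every array. The remaining classes of fast excitation were below it as well. The 5 NMDA receptor genes were at -1.48 to -0.13 log2, with GRIN1, the obligatory subunit, the nearest to the median. The GRIN1 probe set used carries the x suffix, and the only GRIN1 probe set without that suffix averaged -0.92 log2. The 4 AMPA receptor genes were at -1.34 to -0.30 log2, with GRIA2, the subunit that limits calcium entry, the nearest. HTR3A and HTR3B, the serotonin-gated channel, were at -0.87 and -1.32 log2.

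Several probe sets were available for 22 of the genes. Those of a gene spanned a median of 0.38 log2, and up to 3.02 log2 for GRIK2. Of these 22 genes, 12 had a probe set whose difference between the groups had the opposite sign to that of the probe set used. CHRNA3 was the gene with all of its probe sets above the array median on all 6 arrays among these 22.

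**Figure D3:**
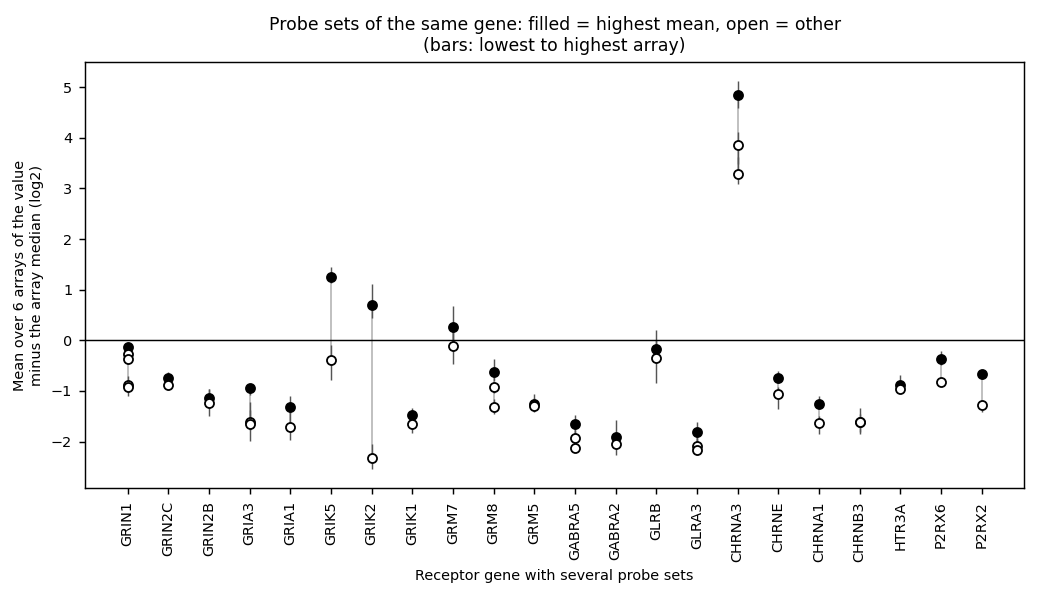
Mean over 6 arrays of the probe set value minus the array median, in log2 on the vertical axis, for the 22 receptor genes with several probe sets. Filled circles are the probe sets used, open circles the others, and bars run from the lowest to the highest array. The 3 probe sets of CHRNA3 lie above the line, while the second probe sets of GRIK2 and GRIK5 lie below it.

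Whether bilirubin changed the receptor genes within 1 h was tested by comparing Bf 140 nM with DMSO 0.6%. By limma with adjustment over all 22215 probe sets, 0 of the 61 genes passed an adjusted p of 0.10 upward and 0 downward, where 0% of all probe sets were called in either direction. At an unadjusted p under 0.05 limma called 0 of the 61 genes, and 0.099% of all probe sets. With the replicate number as a block it called 0 of them at that level, and 1.22% of all probe sets. Without the block, differences between replicate numbers count as spread within the groups. SAM, the test of the study, was run without the study's filter on detection calls and called 0 at an FDR of 10%. The median difference of the receptor genes was 0.00 log2, against 0.01 log2 for all genes, and the differences ran from -0.09 log2 for P2RX1 to 0.14 log2 for CHRNA5. All 61 of the 95% confidence intervals lay within a 2-fold change in array value, and 58 within 1.5-fold. The exceptions were P2RX4 (-0.71 to 0.85), CHRNB4 (-0.68 to 0.55) and CHRNB1 (-0.51 to 0.67). With the replicate block all 61 intervals lay within 1.5-fold, at -0.17 to 0.31 for P2RX4, -0.27 to 0.14 for CHRNB4 and -0.13 to 0.28 for CHRNB1. These bounds hold for array values and not for amounts of RNA. Of the 61 genes, 51 lay below the array median on every array. How far the values of such dim genes follow their RNA was not tested.

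The largest positive difference was that of CHRNA5, at 9.25 ± 0.16 log2 (SD, n = 3) in Bf 140 nM and 9.11 ± 0.13 log2 (SD, n = 3) in DMSO 0.6%. Bf 140 nM exceeded DMSO 0.6% by 0.14 log2 (95% confidence interval -0.15 to 0.43, limma adjusted p = 1.00), and within replicates 1, 2 and 3 it was 0.19, 0.11 and 0.12 log2. It was positive in 3 of 3 pairs and about as large as the SD within each group, which includes differences between replicate numbers. With the replicate block the 95% confidence interval was -0.04 to 0.32 log2, which still included 0. Leaving out 1 array moved the difference to between 0.061 log2, without replicate 1 of Bf 140 nM, and 0.22 log2, without replicate 3 of Bf 140 nM. GRM8, a presynaptic metabotropic receptor, read 7.19, 7.37 and 7.42 log2 in Bf 140 nM and 7.32, 7.15 and 7.13 log2 in DMSO 0.6%. Its difference of 0.12 log2 (-0.13 to 0.38) was negative in replicate 1 and positive in the other two. GRIN2C, an NMDA receptor subunit of cerebellar granule cells, read 7.25, 7.31 and 7.05 log2 in Bf 140 nM and 7.27, 7.23 and 6.77 log2 in DMSO 0.6%. Its difference of 0.11 log2 (-0.28 to 0.50) fell to -0.05 log2 once replicate 3 of DMSO 0.6% was dropped.

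P2RX6, a P2X subunit that forms channels poorly alone, read 7.58, 7.57 and 7.57 log2 in Bf 140 nM and 7.47, 7.50 and 7.43 log2 in DMSO 0.6%. All Bf values were above all DMSO values, with a difference of 0.11 log2 (-0.08 to 0.29). On its other probe set the difference was 0.0073 log2, negative in replicates 1 and 2, and the groups overlapped. On the probe sets used, P2RX6 and GRIK5 were the 2 genes (3.28%) whose groups did not overlap, against 2.38% of all genes. For both the exact two-sided permutation test gave p = 0.1, the smallest that 3 arrays against 3 allow. Among the probe sets not used, groups also did not overlap on a probe set of GRIN1 (0.12 log2) and on a probe set of GLRA3 (-0.04 log2). Over all probe sets, groups did not overlap on 2.65%. The difference of GRIK5 was 0.10 log2 (-0.08 to 0.28) on the probe set used and -0.04 log2 on its other probe set.

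Among the negative differences P2RX1, an ATP-gated channel of smooth muscle and platelets, had the largest on all arrays. It read 7.59, 7.60 and 7.36 log2 in Bf 140 nM and 7.78, 7.58 and 7.47 log2 in DMSO 0.6%, a difference of -0.09 log2 (-0.39 to 0.20), and the groups overlapped. This became -0.0089 log2 without replicate 1 of DMSO 0.6%, -0.017 log2 without replicate 3 of Bf 140 nM and -0.04 log2 with array weights, so its place among the negative differences rested on single arrays. GLRB read 7.77, 7.83 and 7.40 log2 in Bf 140 nM and 7.71, 7.95 and 7.59 log2 in DMSO 0.6%, a difference of -0.09 log2 (-0.47 to 0.29) that was positive in replicate 1. GRM3, a metabotropic receptor of neurons and glia, read 6.66, 6.86 and 6.99 log2 in Bf 140 nM and 6.76, 6.91 and 7.06 log2 in DMSO 0.6%. GABRA5, an alpha subunit of GABA-A receptors in hippocampus, read 6.27, 6.13 and 6.22 log2 in Bf 140 nM and 6.38, 6.19 and 6.25 log2 in DMSO 0.6%. These differed by -0.07 log2 each and were negative in 3 of 3 pairs, with groups that overlapped. Both other GABRA5 probe sets had differences of positive sign, 0.10 and 0.05 log2.

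**Figure D4:**
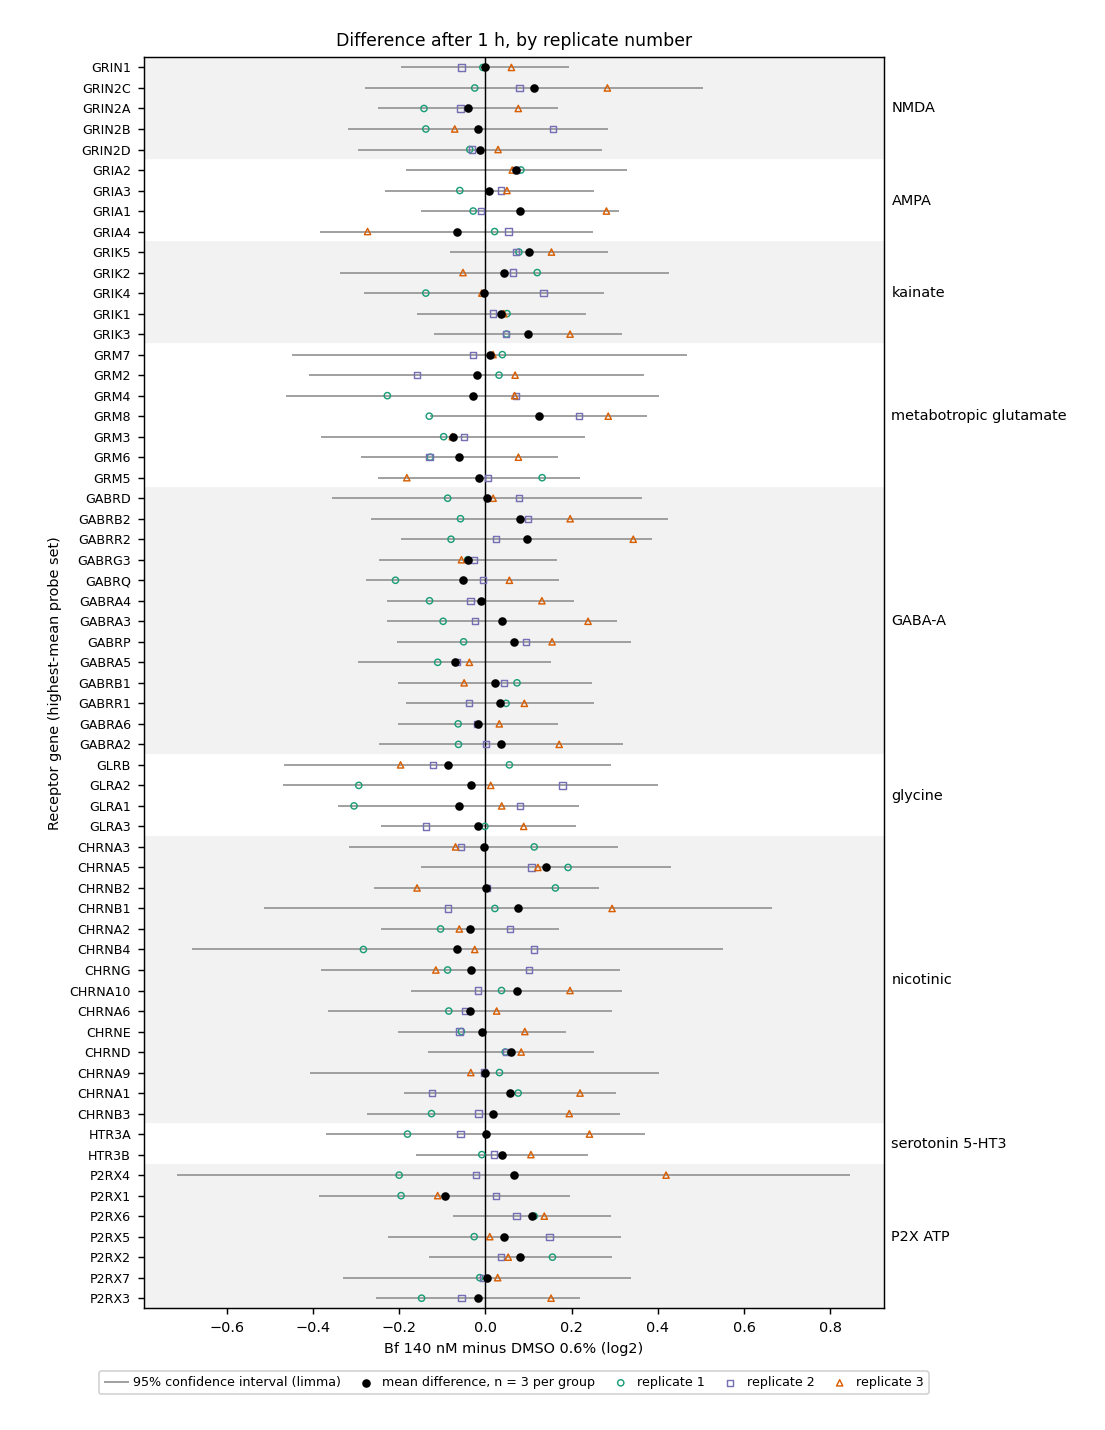
Bf 140 nM minus DMSO 0.6% after 1 h, in log2 on the horizontal axis, for 61 receptor genes on the vertical axis. Filled circles are mean differences with 95% confidence intervals from limma (n = 3 per group), and open symbols are the differences within replicates 1, 2 and 3. Every interval includes 0, and that of P2RX4 is the widest, from -0.71 to 0.85.

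Within replicate numbers the share of receptor genes with a positive difference was uneven. In replicate 1 the median difference was -0.04 log2 and 22 of 61 genes (36.1%) were positive, where 58.9% of all genes were. In replicate 2 it was 0.00 log2 with 32 genes (52.5%) positive, where 47.3% of all genes were. In replicate 3 it was 0.06 log2 with 44 genes (72.1%) positive, where 54.5% of all genes were. Genes below the median on every array had the same order of shares over the whole array, with 41.2%, 56.9% and 71.0% positive in replicates 1, 2 and 3. The array medians of Bf 140 nM and DMSO 0.6% were 7.97 and 7.95 log2 in replicate 1 and 7.94 and 7.95 in replicate 2. In replicate 3 they were 7.78 and 7.73 log2, and the part of these medians in the shares was not tested. The GABA-A class had 2, 6 and 10 of its 13 genes positive in replicates 1, 2 and 3, and the nicotinic class 8, 6 and 8 of 14. Positive in all 3 replicates were 8 genes (13.1%), GRIA2, GRIK5, GRIK1, GRIK3, CHRNA5, CHRND, P2RX6 and P2RX2, where 11.1% of all genes were. Negative in all 3 were GRM3, GABRG3 and GABRA5 (4.92%), where 5.17% of all genes were.

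More receptor genes passed the test between replicate numbers than between treatments. With treatment in the fit, the limma F test of the replicate number called 19 of the 61 genes (31.1%) at an adjusted p under 0.10, where 44.2% of all genes and 44.6% of all probe sets were called. The smallest adjusted p were those of P2RX4 (0.00061), CHRNB4 (0.0011), CHRNB1 (0.0014) and GRM7 (0.0032). P2RX4, CHRNB4 and CHRNB1 were lower in the replicate 3 arrays than in the others by means of -0.77, -0.61 and -0.52 log2, and on the probe sets used GRM7 and GRIK2 were higher by 0.40 and 0.35 log2. The other GRM7 probe set was lower in replicate 3, by a mean of -0.61 log2. Of the 6 called genes with several probe sets, 3 (CHRNA3, GLRB and GRM7) had one that went the opposite way in replicate 3. On the deposited values 15 of the 19 were lower and 4 higher in replicate 3, where 2901 of the genes called over the whole array were lower and 2383 higher. With equal array medians 13 receptor genes were called, 3 lower and 10 higher, where 49.3% of all genes were called, 1385 lower and 4511 higher. With quantile normalization 13 were called, 7 lower and 6 higher, where 43.0% of all genes were, 2126 lower and 3013 higher. P2RX4, CHRNB1 and CHRNB4 were called as lower, and GRIK2, GRM7 and GRM3 as higher, under all 3 scalings on the probe sets used, a direction that the other GRM7 probe set did not share on the deposited values. The replicate 3 arrays had the larger 3′ to 5′ difference of actin given above, and its part in these values was not tested.

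The partners of these receptors were also compared, in lists of named genes chosen, like the receptors, with earlier results of these data known. The lists held 55, 40 and 31 genes, and those carried by a probe set with a single symbol were compared. Of 42 genes of receptor assembly and anchoring 0 passed in either direction by limma, with a median difference of 0.02 log2. GRIP2, a scaffold of AMPA receptors, differed by -0.10 log2 (-0.30 to 0.10), and NSF, an ATPase of membrane fusion that binds AMPA receptors, by -0.16 log2 (-0.58 to 0.25). Of 33 genes of transmitter synthesis and transport 0 passed, with a median of 0.01 log2. ACHE, which breaks down acetylcholine, differed by 0.16 log2 (-0.05 to 0.37), and SLC5A7, the choline transporter, by 0.18 log2 (-0.17 to 0.52). Of 26 genes for G protein-coupled receptors of the same transmitters 0 passed, with a median of -0.00 log2. HTR1A, a serotonin receptor, differed by 0.19 log2 (-0.11 to 0.50), and CHRM3, the muscarinic M3 receptor, by 0.22 log2 (-0.15 to 0.58).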

How the data were processed

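SH-SY5Y cells were hybridized to Affymetrix GeneChip arrays, 3 per group. The authors took cell intensities from GCOS, applied variance-stabilizing normalization in R 2.5.0 and deposited log2 values. Log2 is what the normalization method returns and is not settled by the values themselves. If the logarithm were natural, folds would be larger than stated. How probes were summarized was not given in the sources. Before SAM the study dropped probes without a Present call on any array, and that filter was not applied here.

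Of 22277 probe sets, 62 platform controls were set aside. The platform's annotation gave 1 symbol to 19064 probe sets, and all 61 receptor symbols matched a table of GRCh38.p14. Fits used limma 3.58.1 in R 4.3.3 (lmFit, eBayes) with Benjamini-Hochberg adjustment. The fits, and SAM written anew with all 20 label permutations, were run on simulated data. For the treatment comparison the simulated noise was independent for each array, so the shared deviations of replicate numbers described below were not covered. Permutation tests used scipy 1.17.1.

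The replicate numbers pair the samples by the values, since both arrays of a number deviated together from their groups' means, with correlations of 0.725, 0.783 and 0.880. The highest correlation of each Bf array with a DMSO array of another number was 0.36, 0.41 and -0.75. Deviations from a shared mean are not independent of each other. No source ties the numbers to batches or days. The study's methods name no pairing, so the block was an alternative. Each array was named by the replicate number of its title. The members and lists were chosen with earlier results of these data known. Array values were given for genes above the array median on all arrays, the 4 largest differences in each direction, and genes whose groups did not overlap, and partners by the 2 smallest p in each list. The number of arrays limits the precision, with a median interval of 0.27 log2 on either side of a receptor difference, or 0.19 with the block.

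Other settings tried were SAM, other thresholds, a block for the replicate number, equal medians for the arrays, quantile normalization, weights per array, a trended and robust eBayes, averaging a gene's probe sets, a filter on the lower part of the mean levels and leaving out each array. Leaving out both replicate 3 arrays was chosen after seeing the data.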

Additional observations from a re-analysis of the deposited data

How the results depend on the processing

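The count of receptor genes called between Bf 140 nM and DMSO 0.6% was 0 under every alternative run, the replicate block (0), adjusted p thresholds of 0.05 and 0.2 and SAM included, and so was that of the partner lists. The replicate block changed no call. The median receptor difference was 0.00 log2 and became 0.055 log2 with the filter at the median of mean levels, which kept 8 of the 61 genes. Without 1 array it ranged from -0.041 to 0.042 log2. The count of genes above the array median on all arrays was 4 to 7 under the alternatives, with CHRNB1 and P2RX4 joining without the DMSO array of replicate 3 and GRIK2 lost with the mean of all probe sets. The sign turned for CHRNA3 with quantile normalization (0.0029 log2), array weights (0.079) and without both replicate 3 arrays (0.029), for CHRNB2 with quantile normalization (-0.008) and equal array medians (-0.017), and for GABRA5 with the mean of all probe sets (0.025). The cause was not tested. In the other 83 of 89 such values for 12 named genes the sign held, and 13 of 72 values without 1 array turned it, with these ranges: GRIN2C -0.049 to 0.20 log2, GRIK2 -0.049 to 0.19 log2, GRM3 -0.15 to 0.012 log2, GLRB -0.17 to 0.049 log2, CHRNA3 -0.084 to 0.097 log2, CHRNB2 -0.088 to 0.08 log2. Of those that kept their sign, CHRNA5 ranged from 0.061 to 0.22 log2, GRM8 from 0.077 to 0.19 log2, P2RX1 from -0.16 to -0.0089 log2 and GABRA5 from -0.11 to -0.019 log2. Equal array medians moved the median of all differences by -0.02 log2. With 3 arrays per group, a difference under about 0.27 log2 lay within the median interval of a receptor gene.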
